A study of Mus musculus with 15 samples.

Results

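Interferon-stimulated genes are the genes that cells switch on when an interferon reaches its receptor. A set of 45 of them was followed by gene symbol through the count table, out of 40510 genes in all, and every one of the 45 was in the table. They fell into 3 classes: 35 antiviral genes of the type I response, 6 large GTPases that are best known as interferon-gamma targets (Gbp2, Gbp3, Gbp7, Iigp1, Igtp and Irgm1), and 4 transcriptional regulators of the response (Irf1, Irf7, Irf9 and Stat2). Of the 45, 44 had enough counts to be tested, among 13284 genes. The one left out was Ifi44, which had 0 to 0.388 CPM in the 15 libraries, and it is described by this range only.

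The cells were alveolar macrophages, which patrol the airspaces of the lung, lavaged from lungs of untreated mice and sorted as CD45+ Ly6G- SiglecF+ CD11c+ cells. The knockout (labelled CGD/CYBB KO) lacks a working Cybb, the gene of the NOX2 subunit with which phagocytes make superoxide, and is a mouse model of chronic granulomatous disease. Both genotypes, and so all groups, are on the C57BL/6 background. The 5 groups of 3 libraries were 4-week knockout CD11b-low cells, 4-week wild-type CD11b-low cells, 12-week knockout CD11b-high cells, 12-week knockout CD11b-low cells and 12-week wild-type CD11b-low cells. CD11b, encoded by Itgam, is the integrin by which the cells were split. The 5 groups hold no CD11b-high wild-type cells. CD11b-high knockout cells are therefore compared with CD11b-low cells of the same genotype and with CD11b-low wild-type cells. In the second of these comparisons genotype and CD11b gate cannot be told apart. Each library pooled 2 to 3 mice of a group, so the spread between libraries is one between pools.

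Libraries held 22856331 to 36458893 counts. Levels are CPM, the count of a gene relative to the total of its library, scaled by TMM, a factor that corrects for differences in library composition. Fold changes are on the log2 scale and come, with their standard errors (SE) and adjusted p-values, from edgeR's quasi-likelihood test over all 13284 genes, with Benjamini-Hochberg adjustment and a threshold of 0.05. Cybb, the targeted gene, ranged over 129 to 221 CPM across 9 knockout libraries (lower but not absent), against 899 to 2319 CPM across 6 wild-type libraries. Itgam ranged over 30.7 to 88.4 CPM in CD11b-high cells, against 0.805 to 6.26 CPM across 12 CD11b-low libraries. Among these 12, the knockout pools of 12 weeks held the most Itgam, at 3.11 to 6.26 CPM. No other CD11b-low library exceeded 2.24 CPM. The CD11b-low groups were therefore not matched in Itgam level, and the part of this in their differences was not tested. The 8 alveolar macrophage markers, among them Siglecf, Marco and Chil3, were detected in every library and summed to 26514 to 66251 CPM. One library stood apart. Replicate 1 of the 12-week wild-type cells had a mean correlation of 0.944 with the other two of its group (log2 levels over the genes tested), against 0.966 and 0.967 for replicates 2 and 3, and its alveolar macrophage markers summed to 26514 CPM, against 47360 and 44873 CPM. Most of the marker sum was Chil3 in every library, and the markers did not move alike in replicate 1. Siglecf was the lowest of its group there (213 CPM, against 308.1 and 308.1 CPM) and Itgax the highest (491 CPM, against 205 and 252 CPM). The sum is therefore not a measure of macrophage number. Replicate 1 also held the lowest level of its group for all 6 GTPases, for Iigp1 in a tie at 0. For the set of interferon-stimulated genes defined above, main results against 12-week wild-type cells are therefore also given without it. Results for all other genes, among them further pathway genes and cell-type markers, are given only with it. In bulk RNA, fewer cells of a type and less RNA per cell cannot be told apart.

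Type I interferons bind the receptor of Ifnar1 and Ifnar2, and a complex that holds Stat2 and Irf9 then binds interferon-stimulated response elements in the promoters of antiviral genes. Interferon-gamma binds the receptor of Ifngr1 and Ifngr2, and its signal reaches genes through gamma-activated sites. The 2 sets of targets overlap: the guanylate-binding proteins and the immunity-related GTPases, which act on vacuoles that hold microbes, respond most strongly to interferon-gamma in mice but also respond to type I interferons. Inherited loss of the phagocyte oxidase is known in patients and mice for inflammation with a raised interferon signature.

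Response elements were held by a larger share of these promoters than of promoters in general. RefSeq promoters (GRCm38.p6; 250 bases before to 50 after the transcription start) were found by symbol for 33 of the 45 genes. The response element was searched as a pair of GAAA with any 2 bases between them, or on the other strand a pair of TTTC with any 2 bases between them, and the gamma-activated site as TTCNNNGAA, which reads alike on both strands, and overlapping matches were counted. A response element was found in 19 of 33 (57.6%), against 3.99% of 27025 genes with a promoter in the table, and by class in 13 of 24 antiviral genes (54.2%), 5 of 5 GTPases and 1 of 4 regulators. A gamma-activated site was found in 11 of 33 (33.3%), against 9.55% of all genes, and by class in 8 of 24 antiviral genes (33.3%), 2 of 5 GTPases (40%) and 1 of 4 regulators (25%). The stretches below lie just before the start and show the arrangement in antiviral genes (Isg15, Ifit1, Oas3), in GTPases (Gbp3, Gbp7, Igtp) and in the regulator Irf1. They read 5′ to 3′ along the gene, with the matched letters of either motif in capitals:
Isg15, chr4:156200819-156200948, minus strand: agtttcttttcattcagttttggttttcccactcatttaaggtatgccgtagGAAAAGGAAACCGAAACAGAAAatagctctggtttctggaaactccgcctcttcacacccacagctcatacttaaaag
Ifit1, chr19:34640759-34640870, plus strand: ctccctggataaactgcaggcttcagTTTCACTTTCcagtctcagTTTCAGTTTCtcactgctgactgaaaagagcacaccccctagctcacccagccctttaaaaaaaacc
Oas3, chr5:120777662-120777789, minus strand: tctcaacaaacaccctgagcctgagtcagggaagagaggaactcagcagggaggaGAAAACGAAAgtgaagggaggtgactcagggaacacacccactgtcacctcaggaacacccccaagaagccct
Gbp3, chr3:142559914-142560025, plus strand: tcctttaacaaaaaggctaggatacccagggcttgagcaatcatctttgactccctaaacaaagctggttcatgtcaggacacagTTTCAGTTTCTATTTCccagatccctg
Gbp7, chr3:142530206-142530335, plus strand: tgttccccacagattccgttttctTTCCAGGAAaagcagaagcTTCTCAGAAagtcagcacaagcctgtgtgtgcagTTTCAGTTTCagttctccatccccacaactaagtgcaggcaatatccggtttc
Igtp, chr11:58199426-58199555, plus strand: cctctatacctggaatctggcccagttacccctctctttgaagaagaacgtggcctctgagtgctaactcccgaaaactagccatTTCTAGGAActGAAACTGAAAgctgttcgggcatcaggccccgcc
Irf1, chr11:53769884-53770013, plus strand: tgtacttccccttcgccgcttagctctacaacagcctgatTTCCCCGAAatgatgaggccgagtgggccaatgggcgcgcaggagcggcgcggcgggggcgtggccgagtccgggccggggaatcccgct
In Isg15 the capitals are 3 overlapping response elements and in Ifit1 they are 2 separate ones. In Gbp7 and Igtp a response element follows gamma-activated sites (2 in Gbp7 and 1 in Igtp), Gbp3 had response elements alone, and Irf1 had a gamma-activated site alone. A match is a description of the letters and does not show that a factor binds there.

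At the top of the pathway, RNA of the 11 interferon genes followed was nearly absent. Of the interferon-alpha genes only Ifna1, Ifna2, Ifna4 and Ifna5 were among them. Of the 11, 7 had 0 counts in all 15 libraries. Ifnk had the most, 38 counts over 12 libraries and at most 7 in a library, and Ifnz had 1 count. Ifng, the gene of interferon-gamma, had 7, 4 and 0 counts in CD11b-high knockout cells and 2, 5 and 4 counts in CD11b-low knockout cells at 12 weeks, and 0 counts in the other 9 libraries, which is at the limit of detection. Ifnb1 had 6 counts in replicate 3 of the 12-week CD11b-low knockout cells and 0 elsewhere. The 5 receptor genes tested, Ifnar1, Ifnar2, Ifngr1, Ifngr2 and Il10rb, had counts in every library. Ifnlr1, the gene of the interferon-lambda receptor, was too low to be tested: it had 11, 12 and 10 counts in CD11b-high knockout cells, 0, 7 and 5 counts in CD11b-low knockout cells and 0 counts in wild-type cells at 12 weeks, and at 4 weeks 0 counts in knockout and 1 count in wild-type cells. Ifngr2 had 97.1, 117 and 129.5 CPM in CD11b-high knockout cells, 67.9, 62.5 and 70.4 CPM in CD11b-low knockout cells and 59.01, 37.7 and 47.7 CPM in wild-type cells, and it rose in CD11b-high knockout over wild-type cells by 1.25 (SE 0.22, adjusted p = 0.000887). Il10rb, a chain shared by the receptors of interferon-lambda and interleukin-10, rose in the same comparison by 1.28 (SE 0.21, adjusted p = 0.0005). Ifnar1, Ifnar2 and Ifngr1 passed in none of the 6 comparisons between groups.

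At 12 weeks, part of the antiviral genes and GTPases were higher in knockout than in wild-type macrophages, and the count was larger in CD11b-high cells than in CD11b-low cells. Between groups of the same age, rose and fell mean higher and lower than the second group, and not a change over time. In CD11b-low knockout against wild-type cells 4 of 44 members rose and none fell (of all genes tested, 3.1% passed, 2.6% higher and 0.497% lower). They were the oligoadenylate synthetase genes Oas3 and Oasl2, the ISG15 protease gene Usp18 and the GTPase gene Irgm1. In CD11b-high knockout against wild-type cells 23 rose and 1 fell (14.8% of all genes passed, 9.23% higher and 5.6% lower). In CD11b-high against CD11b-low knockout cells 2 rose, Usp18 and Ifitm3, and none fell (0.693% of all genes passed, 0.572% higher and 0.12% lower). The first 2 comparisons share their wild-type libraries. Libraries of the 2 groups did not overlap for 12 members higher and 1 lower in CD11b-low knockout against wild-type cells (9.82% and 7.99% of all genes), for 27 higher and 1 lower in CD11b-high knockout against wild-type cells (15.6% and 10.8%), and for 11 higher and 1 lower between the knockout populations (7.91% and 5.86%). The median member stood at a log2 fold change of 0.62, 1.002 and 0.38 in the 3 comparisons in that order, against -0.04, -0.01 and 0.01 over all genes tested. Without wild-type replicate 1, 3 members passed in CD11b-low knockout against wild-type cells. The count against wild-type cells was 15 without CD11b-high replicate 2, and the count between the 2 knockout populations was 0 when CD11b-high replicate 2 or 3, or CD11b-low replicate 2 or 3, was left out.

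**Figure D1:**
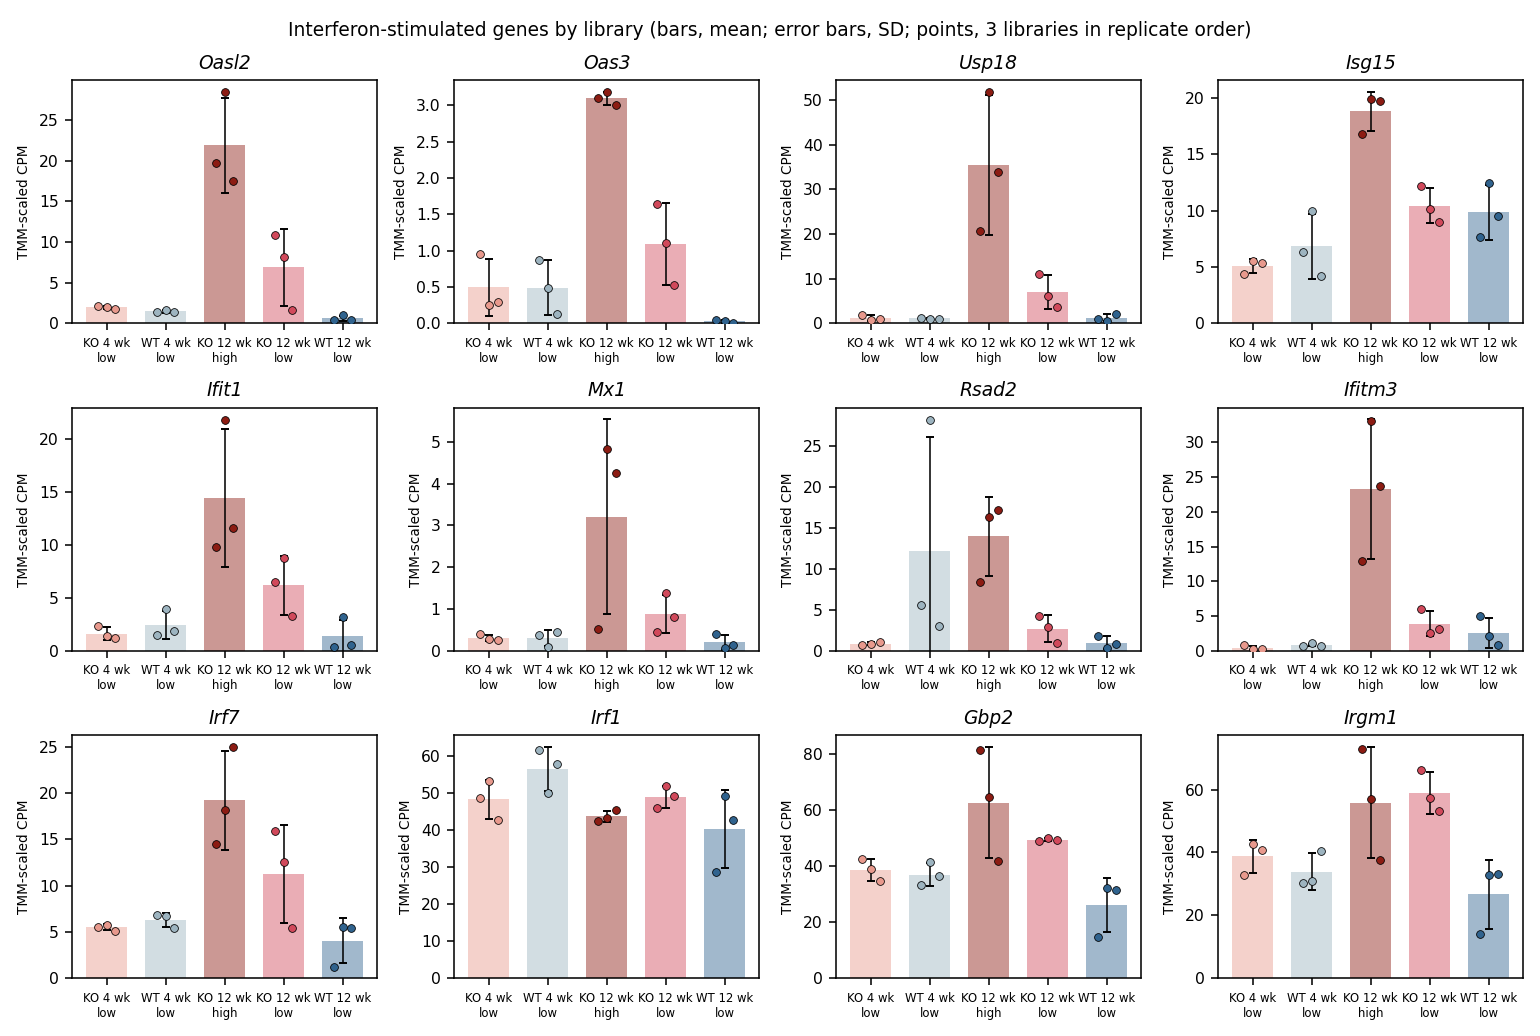
TMM-scaled CPM (y axis, linear, from 0) of 12 members in the 5 groups (x axis: genotype, age and CD11b gate); bars are means, error bars SD and points the 3 libraries of a group. Oasl2, Oas3, Usp18 and Ifitm3 reach their highest bar in CD11b-high knockout cells (Oas3 3.01 to 3.19 CPM, against 0.522 to 1.65 CPM in CD11b-low knockout and 0 to 0.0403 CPM in wild-type cells at 12 weeks), whereas the bars of Irf1 lie close together.

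Oligoadenylate synthetases make short oligoadenylates in response to double-stranded RNA and so activate the RNA-degrading enzyme RNase L. Of the 5 members of this family 4 rose in CD11b-high knockout over wild-type cells and 2 in CD11b-low knockout over wild-type cells (9.23% and 2.6% of all genes). Oas3 (ENSMUSG00000032661, chr5:120753098-120777661) had 3.10, 3.19 and 3.01 CPM in CD11b-high knockout cells, 1.65, 1.10 and 0.522 CPM in CD11b-low knockout cells and 0.0403, 0.0318 and 0 CPM in wild-type cells. The wild-type values are 2 counts in all, and the 3 groups did not overlap. By counts the ratio to wild-type cells was 121 (95% exact interval 33.0 to 1001, counting error only) for the 241 counts of CD11b-high cells and 43.1 (11.7 to 361) for the 107 counts of CD11b-low cells. Its fitted log2 fold changes over wild-type were 6.72 (SE 0.94, adjusted p = 0.000122) in CD11b-high cells and 5.22 (SE 0.94, adjusted p = 0.00471) in CD11b-low cells.

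Oasl2 (ENSMUSG00000029561, chr5:114896936-114912234), a synthetase-like gene, had 19.7, 28.5 and 17.4 CPM in CD11b-high knockout cells, 10.9, 8.11 and 1.66 CPM in CD11b-low knockout cells and 0.403, 0.987 and 0.411 CPM in wild-type cells. Every knockout library lay above every wild-type library, and replicate 3 was the lowest of the CD11b-low knockout pools. The gene rose by 5.14 (SE 0.57, adjusted p = 1.39e-05) in CD11b-high and by 3.48 (SE 0.54, adjusted p = 0.00136) in CD11b-low cells over wild-type, and it was the member that passed under every alternative in both. Oas2 had 3.46, 4.03 and 4.90 CPM in CD11b-high knockout cells, 2.35, 1.22 and 0.359 CPM in CD11b-low knockout cells and 0.483, 0.0637 and 0.0456 CPM in wild-type cells. It rose in CD11b-high over wild-type cells by 4.38 (SE 0.77, adjusted p = 0.00105), while CD11b-low knockout and wild-type libraries overlapped, with a log2 difference of 2.72 (SE 0.75, adjusted p = 0.058). Oas1a, one of a family of near-identical copies among which reads may be split, rose in CD11b-high over wild-type cells by 1.09 (SE 0.27, adjusted p = 0.0112). Oasl1 did not pass in any of the 6 comparisons.

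The IFIT proteins bind RNA that lacks the marks of host messages. Their 4 genes lie within chr19:34550694-34650009 on the plus strand, and 3 of them rose in CD11b-high knockout over wild-type cells (9.23% of all genes). Ifit1 had 9.78, 21.8 and 11.6 CPM in CD11b-high knockout cells, 6.50, 8.80 and 3.26 CPM in CD11b-low knockout cells and 0.362, 3.15 and 0.548 CPM in wild-type cells. Its knockout and wild-type libraries did not overlap, but in wild-type cells replicate 2 was close to the lowest CD11b-low knockout pool. The rise was 3.37 (SE 0.66, adjusted p = 0.00247) in CD11b-high cells, and CD11b-low cells differed from wild-type by 2.15 (SE 0.64, adjusted p = 0.0775). Ifit2 had 3.51, 9.80 and 4.87 CPM in CD11b-high knockout cells, 0.519, 2.83 and 0.750 CPM in CD11b-low knockout cells and 0.886, 0.446 and 0.411 CPM in wild-type cells. CD11b-high replicate 2 held the highest value, and the CD11b-low knockout and wild-type libraries overlapped. Ifit2 rose in CD11b-high over wild-type cells by 3.37 (SE 0.68, adjusted p = 0.00295) and Ifit3 by 2.05 (SE 0.60, adjusted p = 0.0294). Ifit3 and Ifit3b are near-identical copies, so the counts of each are uncertain, and the Ifit3 rise did not pass when CD11b-high replicate 2 or 3 or any 1 of the 3 wild-type libraries was left out (adjusted p up to 0.109 over all alternatives).

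Among 12 tested antiviral effectors 7 rose and 1 fell in CD11b-high knockout over wild-type cells (9.23% and 5.6% of all genes). Ifitm3, which blocks the fusion of viruses in endosomes, had 12.96, 33.05 and 23.7 CPM in CD11b-high knockout cells, 6.04, 2.62 and 3.13 CPM in CD11b-low knockout cells and 4.95, 2.10 and 0.776 CPM in wild-type cells. CD11b-high cells lay above both other groups, which overlapped. It rose by 3.15 (SE 0.58, adjusted p = 0.0015) over wild-type cells and by 2.56 (SE 0.56, adjusted p = 0.0432) over CD11b-low knockout cells. With replicate number as a block within the 2 knockout populations the second rise had an adjusted p of 0.0397. That call was lost in 5 of 13 alternatives (adjusted p up to 0.246). These were the fit of the compared groups alone and the fits without CD11b-high replicate 2 or 3 or CD11b-low replicate 2 or 3.

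Rsad2 and Cmpk2, neighbours on chromosome 12, encode viperin, which makes a chain-terminating nucleotide, and a mitochondrial nucleotide kinase. Rsad2 had 8.40, 16.3 and 17.1 CPM in CD11b-high knockout cells, 4.21, 2.92 and 1.01 CPM in CD11b-low knockout cells and 1.81, 0.286 and 0.867 CPM in wild-type cells. CD11b-high libraries lay above the other 6, and the CD11b-low knockout pools overlapped the wild-type ones. Rsad2 rose in CD11b-high over wild-type cells by 3.83 (SE 0.80, adjusted p = 0.00445). Cmpk2 had 0.448, 2.11 and 1.46 CPM in CD11b-high knockout cells, 1.13, 0.716 and 0.163 CPM in CD11b-low knockout cells and 0.121, 0.0318 and 0 CPM in wild-type cells, all near 1 CPM or below apart from CD11b-high replicates 2 and 3. It rose in CD11b-high over wild-type cells by 4.60 (SE 0.98, adjusted p = 0.0045), and the CD11b-low knockout difference of 3.61 (SE 0.98, adjusted p = 0.0543) just missed the threshold.

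Mx1, a dynamin-like antiviral GTPase whose protein is not functional in C57BL/6, had 0.530, 4.83 and 4.25 CPM in CD11b-high knockout cells, 0.458, 1.37 and 0.816 CPM in CD11b-low knockout cells and 0.403, 0.0637 and 0.137 CPM in wild-type cells. CD11b-high replicate 1 stood far below replicates 2 and 3, at the level of the CD11b-low knockout pools. Mx1 rose in CD11b-high over wild-type cells by 3.99 (SE 0.83, adjusted p = 0.00367), Mx2 by 2.61 (SE 0.70, adjusted p = 0.0194), and Rtp4, a Golgi chaperone, by 2.02 (SE 0.45, adjusted p = 0.0058). The Mx2 call was lost without CD11b-high replicate 2 or 3 or wild-type replicate 2. Ifi27l2a rose by 0.64 (SE 0.21, adjusted p = 0.0488) in the same comparison. The one member that fell was Ifi35, by -0.62 (SE 0.20, adjusted p = 0.0457). Its level was 56.9 to 70.8 CPM in CD11b-high knockout, 60.0 to 78.8 CPM in CD11b-low knockout and 89.4 to 120.3 CPM in wild-type cells, and neither knockout group overlapped the wild-type cells. The Ifi27l2a and Ifi35 calls were lost in 7 and 9 of 12 alternatives, among them the fits without CD11b-high replicate 2 or 3 or wild-type replicate 2 or 3 and, for Ifi35, without CD11b-high replicate 1. Bst2 (tetherin), Samhd1, Isg20 and Xaf1 did not pass in any of the 3 comparisons at 12 weeks.

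Of 7 genes of the ISG15, ubiquitin and ADP-ribosylation branch, 4 rose in CD11b-high and 1 in CD11b-low knockout cells over wild-type cells (9.23% and 2.6% of all genes). Usp18, which removes ISG15 from proteins and dampens the type I receptor, had 20.7, 51.9 and 33.8 CPM in CD11b-high knockout cells, 11.1, 6.17 and 3.72 CPM in CD11b-low knockout cells and 1.05, 0.541 and 2.10 CPM in wild-type cells. The 3 groups did not overlap, and CD11b-high replicate 2 was highest. Usp18 rose by 4.87 (SE 0.56, adjusted p = 2.14e-05) in CD11b-high and by 2.53 (SE 0.52, adjusted p = 0.0112) in CD11b-low cells over wild-type, and by 2.34 (SE 0.49, adjusted p = 0.0325) between the knockout populations. The last of these had an adjusted p of 0.0514 with the replicate block, and the rise in CD11b-low cells did not pass without wild-type replicate 1 or without wild-type replicate 2 (adjusted p up to 0.0661 over all alternatives).

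Isg15, the ubiquitin-like modifier, had 16.8, 19.9 and 19.7 CPM in CD11b-high knockout cells, 12.1, 10.2 and 9.01 CPM in CD11b-low knockout cells and 7.61, 12.4 and 9.49 CPM in wild-type cells. CD11b-low knockout and wild-type libraries overlapped fully, with a log2 difference of 0.08 (SE 0.29, adjusted p = 0.894), while CD11b-high cells lay above both groups, by 0.93 (SE 0.29, adjusted p = 0.0417) over wild-type. That call was lost in 6 of 12 alternatives, among them the fits without CD11b-high replicate 2 or 3 and without wild-type replicate 1 or 3. Herc6, the main ISG15 ligase gene of the mouse, had 20.2, 26.95 and 23.5 CPM in CD11b-high knockout cells, 15.99, 17.2 and 18.3 CPM in CD11b-low knockout cells and 7.97, 13.4 and 12.4 CPM in wild-type cells. Knockout and wild-type libraries did not overlap, and the rise over wild-type passed in CD11b-high cells at 1.06 (SE 0.23, adjusted p = 0.00471) and not in CD11b-low cells at 0.61 (SE 0.23, adjusted p = 0.154). Parp9 rose in CD11b-high over wild-type cells by 0.94 (SE 0.28, adjusted p = 0.0335); it overlaps Dtx3l on the opposite strand, and the strand setting of the counts is not known. The call was lost without CD11b-high replicate 2 or wild-type replicate 1 or 2. Parp14, Dtx3l and Trim30a did not pass at 12 weeks.

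Of the sensors of foreign nucleic acid none of 6 passed at 12 weeks in any of the 3 comparisons. They are Ifih1, Ddx58, Dhx58, Zbp1, Eif2ak2 and Ifi204, and encode MDA5, RIG-I, LGP2, a Z-nucleic acid sensor, the kinase PKR and a DNA sensor. The nearest was Ddx58, at 0.93 (SE 0.31, adjusted p = 0.0549) in CD11b-high over wild-type cells, whose libraries did not overlap. In edgeR 2 of the 6 sensors had an unadjusted p of 0.05 or less in that comparison, 1 in CD11b-low knockout over wild-type cells and 0 between the knockout populations, against 29.5%, 20.5% and 10% of all genes.

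Of the 6 interferon-gamma-type GTPases, 4 rose in CD11b-high and 1 in CD11b-low knockout cells over wild-type cells (9.23% and 2.6% of all genes). All 6 had a positive log2 fold change in both. Between the 2 knockout populations none passed in edgeR (1 at an unadjusted p of 0.05, against 10% of all genes), and 3 of 6 were positive. All 6 overlapped there, and of all genes only 7.91% were higher and 5.86% lower without overlap.

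Gbp2 (ENSMUSG00000028270, chr3:142620602-142638008) had 81.5, 64.7 and 41.9 CPM in CD11b-high knockout cells, 49.00, 50.3 and 49.4 CPM in CD11b-low knockout cells and 14.9, 32.2 and 31.6 CPM in wild-type cells. The CD11b-low knockout pools lay close together above wild-type cells, while the CD11b-high pools reached from below to above the CD11b-low knockout range. Gbp2 rose in CD11b-high over wild-type cells by 1.26 (SE 0.28, adjusted p = 0.00674) and differed by 0.92 (SE 0.28, adjusted p = 0.087) in CD11b-low cells. Gbp3 had 14.7, 20.8 and 6.97 CPM in CD11b-high knockout cells, 6.77, 10.5 and 6.72 CPM in CD11b-low knockout cells and 2.17, 4.84 and 5.89 CPM in wild-type cells. Knockout libraries of both gates lay above the wild-type ones, and CD11b-high replicate 3 was level with the CD11b-low pools. Gbp3 rose in CD11b-high over wild-type cells by 1.72 (SE 0.39, adjusted p = 0.00716). The call was lost without CD11b-high replicate 2. Gbp7 had 62.8, 82.4 and 48.1 CPM in CD11b-high knockout cells, 50.6, 97.8 and 78.5 CPM in CD11b-low knockout cells and 23.99, 52.1 and 71.2 CPM in wild-type cells. All groups overlapped and no 12-week comparison passed.

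Irgm1 (ENSMUSG00000046879, chr11:48861968-48871683), a regulatory immunity-related GTPase needed for resistance to intracellular bacteria in mice, had 72.9, 56.95 and 37.7 CPM in CD11b-high knockout cells, 66.2, 57.3 and 53.2 CPM in CD11b-low knockout cells and 14.2, 32.9 and 33.3 CPM in wild-type cells. Both knockout groups lay above the wild-type cells, and wild-type replicate 1 was lower than the other two of its group. Irgm1 rose by 1.06 (SE 0.30, adjusted p = 0.0267) in CD11b-high and by 1.14 (SE 0.30, adjusted p = 0.0499) in CD11b-low cells, and the second call sat at the threshold and was lost in 9 of 12 alternatives (adjusted p up to 0.245), among them the fit without wild-type replicate 1. Igtp, another regulatory GTPase, had 40.96, 33.5 and 24.9 CPM in CD11b-high knockout cells, 33.6, 39.5 and 35.9 CPM in CD11b-low knockout cells and 11.6, 31.5 and 29.2 CPM in wild-type cells. Its CD11b-low knockout libraries lay above the wild-type ones, CD11b-high libraries overlapped both, and nothing passed; its exons overlap Irgm2 on the same strand. Iigp1, which coats vacuoles of intracellular parasites, was near 0, with 1.10, 0.703 and 0.248 CPM in CD11b-high knockout cells, 0.458, 0.0298 and 0.0326 CPM in CD11b-low knockout cells and 0, 0 and 0.0456 CPM in wild-type cells. The wild-type group held 1 count in all. By counts the ratio to wild-type was 50.02 (8.58 to 2015) for the 50 counts of CD11b-high cells and 13.7 (2.15 to 573) for the 17 counts of CD11b-low cells, and the fit called the first with an adjusted p of 0.0272. That call was lost without CD11b-high replicate 1 or 2 or wild-type replicate 1 or 2, and the Irgm1 call in CD11b-high cells was lost without CD11b-high replicate 1 or 2 or wild-type replicate 1.

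Of the regulators, Irf7 alone passed. Irf7, which amplifies the type I response, had 14.5, 18.2 and 24.98 CPM in CD11b-high knockout cells, 15.9, 12.5 and 5.45 CPM in CD11b-low knockout cells and 1.25, 5.57 and 5.43 CPM in wild-type cells. CD11b-high libraries lay above wild-type ones, and CD11b-low replicate 3 was within the wild-type range. The rise over wild-type was 2.23 (SE 0.45, adjusted p = 0.00315) in CD11b-high cells and the difference was 1.46 (SE 0.44, adjusted p = 0.0831) in CD11b-low cells. Its exons overlap Phrf1 on the opposite strand. Irf1 had 42.4, 43.3 and 45.3 CPM in CD11b-high knockout cells, 45.9, 51.7 and 49.04 CPM in CD11b-low knockout cells and 28.7, 49.1 and 42.8 CPM in wild-type cells. The groups overlapped apart from CD11b-high and CD11b-low knockout cells, of which the CD11b-high were lower, with a log2 difference of -0.16 (SE 0.21, adjusted p = 0.881). Irf9 had 45.04, 53.8 and 28.9 CPM in CD11b-high knockout cells, 39.3, 46.1 and 37.00 CPM in CD11b-low knockout cells and 11.2, 32.7 and 36.4 CPM in wild-type cells, and CD11b-low knockout libraries lay above the wild-type ones, of which replicate 1 was the lowest by far, without passing (0.61 (SE 0.33, adjusted p = 0.308)). Part of its exons is shared with Rnf31 on the same strand. Stat2 had 11.2, 19.5 and 17.7 CPM in CD11b-high knockout cells, 11.3, 16.7 and 15.7 CPM in CD11b-low knockout cells and 18.6, 10.3 and 12.00 CPM in wild-type cells, in ranges that overlapped.

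**Figure D2:**
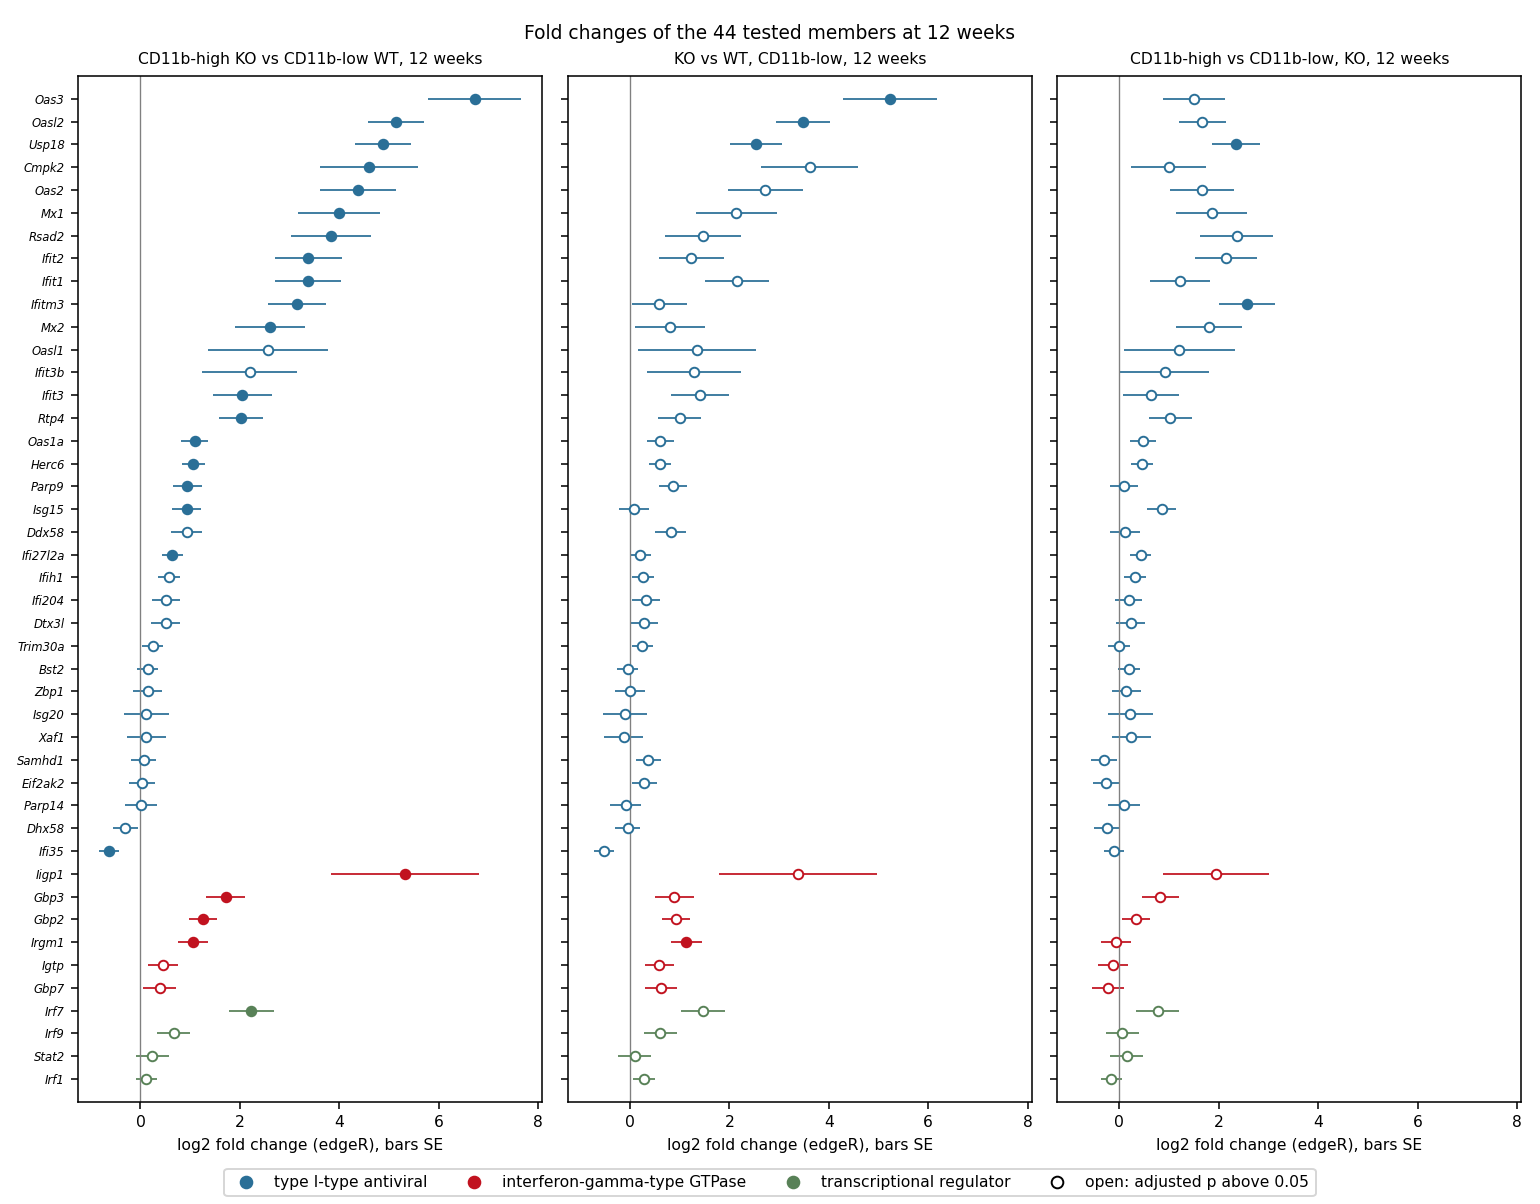
Log2 fold changes (x axis; bars, SE) of the 44 tested members (rows, by class and by the size of the first comparison) in 3 comparisons at 12 weeks; filled points passed an adjusted p of 0.05 in edgeR and open points did not. CD11b-high knockout against wild-type cells holds 24 filled points and CD11b-low knockout against wild-type cells holds 4, and in CD11b-high against CD11b-low knockout cells the 6 GTPases spread around 0 while most antiviral genes lie to its right.

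Set side by side, the 2 classes had these medians. Against wild-type cells the median log2 fold change was, in CD11b-high cells 1.003 for 34 antiviral genes and 1.16 for 6 GTPases, and in CD11b-low knockout cells 0.61 and 0.91, against -0.01 and -0.04 over all genes. Between CD11b-high and CD11b-low knockout cells the antiviral median was 0.47, with 29 of 34 positive and 11 of 34 without overlap in the higher direction, and the GTPase median was 0.13, with 3 of 6 positive and 0 of 6 without overlap (all genes 0.01, and 7.91% higher without overlap). Without Iigp1, which rests on few counts, the GTPase median between the knockout populations was -0.08. Without wild-type replicate 1 the medians over wild-type were 0.85 for antiviral genes and 0.87 for GTPases in CD11b-high cells, and 0.58 and 0.61 in CD11b-low knockout cells. The GTPases called were then 2 in CD11b-high and 0 in CD11b-low cells. These medians describe the lists and are not a test of 1 class against the other.

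The libraries with the highest levels were mostly not the same for the 2 classes. CD11b-high replicate 2 held the highest level of all 15 libraries for 20 of 34 antiviral genes, among them all 4 IFIT genes, but for 1 of 6 GTPases. CD11b-high replicate 1 held it for 4 of 6 GTPases and 3 of 34 antiviral genes. CD11b-high replicate 3 was the lowest of its group for all 6 GTPases, and for 15 of 34 antiviral genes. On a log2(CPM + 1) scale, as the deviation from each gene's mean over 15 libraries, the antiviral median was 0.53, 0.89 and 0.51 and the GTPase median 0.86, 0.53 and -0.09 in CD11b-high replicates 1, 2 and 3. In CD11b-low knockout cells at 12 weeks these medians were 0.31, 0.23 and -0.20 for antiviral genes and 0.26, 0.41 and 0.18 for GTPases. In wild-type cells of that age they were -0.30, -0.30 and -0.38 for antiviral genes and -1.41, -0.30 and -0.20 for GTPases.

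**Figure D3:**
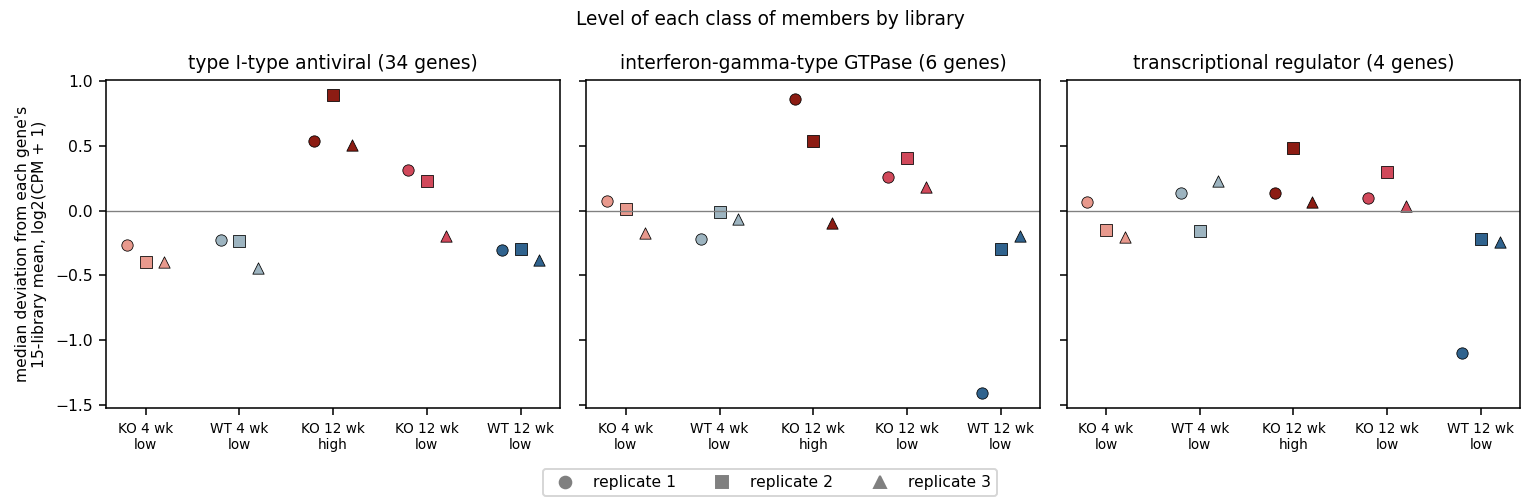
Median deviation of the members of a class from their mean over the 15 libraries, in log2(CPM + 1) (y axis), in each library (points; the shape gives the replicate) of the 5 groups (x axis), for 34 antiviral genes, 6 GTPases and 4 regulators. The 3 CD11b-high libraries are the top of the antiviral panel (0.51 to 0.89), in the GTPase panel they range over -0.09 to 0.86, and 12-week wild-type replicate 1 is the lowest point of the GTPase and regulator panels.

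At 4 weeks no member passed between knockout and wild-type CD11b-low cells. Of all genes 0.0979% did in edgeR (0.0151% higher and 0.0828% lower), 2 of the 44 members had an unadjusted p of 0.05 or less (1.5% of all genes), and DESeq2 and limma voom called 2 each. The median log2 fold change was 0.02 for antiviral genes and 0.09 for GTPases (0.07 without Iigp1, which had 0 counts in wild-type cells), against -0.01 over all genes. Oasl2 had 2.08, 2.03 and 1.77 CPM in knockout and 1.40, 1.68 and 1.33 CPM in wild-type cells. Usp18 had 1.95, 0.733 and 0.837 CPM in knockout and 1.24, 0.927 and 1.03 CPM in wild-type cells. Both genes lay far below their levels in 12-week CD11b-high cells. Oas3 had 0.947, 0.254 and 0.287 CPM in knockout and 0.872, 0.481 and 0.121 CPM in wild-type cells, which is more than the 0 to 0.0403 CPM of 12-week wild-type cells.

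Libraries did not overlap for 3 members higher (Bst2, Ifit3b and Oasl2; 3.91% of all genes) and 2 lower (4.72%). Rsad2 and the exonuclease gene Isg20, the 2 that were lower, were the members with the lowest unadjusted p at 4 weeks. Rsad2 had 0.737, 0.818 and 1.05 CPM in knockout and 5.52, 28.1 and 3.02 CPM in wild-type cells. Its log2 fold change was -3.80 (SE 0.79, adjusted p = 0.144). Isg20 had 5.79, 5.58 and 4.35 CPM in knockout and 10.9, 38.2 and 10.4 CPM in wild-type cells. Its log2 fold change was -1.92 (SE 0.46, adjusted p = 0.347). The groups did not overlap for either gene, and wild-type replicate 2 was far above the other two for both. That library also held most erythroid RNA: the 5 erythroid markers summed to 7468 CPM there, against 45.8 to 151 CPM in the 3 knockout libraries and 1650 and 2085 CPM in the other two wild-type libraries, and their part in these differences was not tested. For the members that follow the genotypes overlapped at 4 weeks. Isg15 had 4.34, 5.56 and 5.33 CPM in knockout and 6.32, 9.95 and 4.17 CPM in wild-type cells. Ifit1 had 2.32, 1.35 and 1.17 CPM in knockout and 1.48, 3.95 and 1.84 CPM in wild-type cells. Gbp2 had 42.7, 38.97 and 34.9 CPM in knockout and 33.4, 41.4 and 36.4 CPM in wild-type cells. Irf7, the amplifier of the type I response, had 5.55, 5.81 and 5.17 CPM in knockout and 6.79, 6.76 and 5.47 CPM in wild-type cells.

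The low-level antiviral genes Oas2, Ifitm3, Ifit2, Mx1 and Cmpk2 stayed under 2 CPM in all 6 libraries at 4 weeks. Oas2 had 0.684, 0.338 and 0.502 CPM in knockout and 0.740, 0.515 and 0.272 CPM in wild-type cells. Ifitm3 had 0.789, 0.282 and 0.191 CPM in knockout and 0.714, 1.06 and 0.726 CPM in wild-type cells. Ifit2 had 1.45, 0.592 and 1.63 CPM in knockout and 0.767, 1.48 and 0.454 CPM in wild-type cells. The genotypes overlapped for each of these, as for the next pair. Mx1 had 0.395, 0.282 and 0.263 CPM in knockout and 0.370, 0.103 and 0.454 CPM in wild-type cells. Cmpk2 had 0.158, 0.0282 and 0.144 CPM in knockout and 0.132, 0.137 and 0.181 CPM in wild-type cells. Herc6 had 20.4, 17.9 and 18.5 CPM in knockout and 19.5, 20.1 and 16.9 CPM in wild-type cells, all above the 12-week wild-type libraries. The GTPases other than Iigp1 were present in every library at 4 weeks, and the genotypes overlapped. Irgm1 had 32.9, 42.7 and 40.9 CPM in knockout and 30.2, 30.8 and 40.6 CPM in wild-type cells. Gbp7 had 97.5, 105 and 108 CPM in knockout and 94.6, 95.4 and 129.7 CPM in wild-type cells, and the wild-type levels all lay above those of 12 weeks. Gbp3 had 8.63, 7.02 and 6.58 CPM in knockout and 6.63, 8.99 and 8.22 CPM in wild-type cells and Igtp had 29.6, 29.9 and 23.2 CPM in knockout and 23.8, 27.1 and 25.5 CPM in wild-type cells. Iigp1 gave 5 counts in the 3 knockout and 0 in the 3 wild-type libraries, too few for a fold. The regulators overlapped as well. Irf1 had 48.6, 53.4 and 42.8 CPM in knockout and 61.6, 50.04 and 57.9 CPM in wild-type cells. Irf9 had 35.3, 34.6 and 29.2 CPM in knockout and 30.7, 28.9 and 37.6 CPM in wild-type cells. Stat2 had 20.6, 11.6 and 13.3 CPM in knockout and 22.4, 13.8 and 29.2 CPM in wild-type cells.

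The change from 4 to 12 weeks was tested within each genotype. In knockout CD11b-low cells 7 antiviral genes rose with age and 1 fell (6.89% of all genes passed, 4.81% higher and 2.08% lower), and no GTPase or regulator passed in edgeR (0 of 6 and 1 of 4 at an unadjusted p of 0.05 or less, against 25% of all genes). The risers were Ifitm3 at 3.22 (SE 0.62, adjusted p = 0.00585), Usp18 at 2.57 (SE 0.51, adjusted p = 0.0066), Ifit3 at 2.39 (SE 0.61, adjusted p = 0.0279), Oasl2 at 1.81 (SE 0.48, adjusted p = 0.0327), Oas1a at 1.04 (SE 0.27, adjusted p = 0.0279), Isg15 at 1.04 (SE 0.30, adjusted p = 0.0437) and Ifi27l2a at 0.87 (SE 0.21, adjusted p = 0.0211), and Dtx3l fell by 0.98 on the log2 scale (adjusted p = 0.0499). In wild-type cells 4 members rose and 7 fell (17.2% of all genes passed, 8.79% higher and 8.39% lower). Those that rose were Ifi35 at 0.75 (SE 0.20, adjusted p = 0.0179), Zbp1 at 1.02 (SE 0.30, adjusted p = 0.0269), Ifi27l2a at 0.72 (SE 0.21, adjusted p = 0.0262) and Bst2 at 0.71 (SE 0.22, adjusted p = 0.0327). Those that fell were Oas3 at -4.09 (SE 0.97, adjusted p = 0.0101), Rsad2 at -3.64 (SE 0.79, adjusted p = 0.00747), Ddx58 at -1.36 (SE 0.31, adjusted p = 0.0089), Dtx3l at -1.14 (SE 0.29, adjusted p = 0.0139), Gbp7 at -1.12 (SE 0.33, adjusted p = 0.0289), Parp9 at -0.998 (SE 0.28, adjusted p = 0.0229) and Herc6 at -0.74 (SE 0.23, adjusted p = 0.0329). Of the 6 GTPases 2 had an unadjusted p of 0.05 or less in wild-type cells, against 31.7% of all genes. Libraries of the 2 ages did not overlap for 16 members higher and 2 lower in knockout cells (19% and 19.6% of all genes), and for 5 higher and 15 lower in wild-type cells (15.6% and 18.7%). The Oas3 fall rests on 2 counts at 12 weeks against 51 at 4 weeks, a ratio of 4-week over 12-week counts of 19.9 (5.24 to 169, 95% exact interval), and the call was lost without 4-week wild-type replicate 1. The Rsad2 fall was -2.13 (adjusted p = 0.0371) without 4-week wild-type replicate 2, the library with the most erythroid RNA, and its log2 fold changes ran over -4.51 to -2.13 over all alternatives. Markers of other cell types moved with age as well. In knockout cells 8 of 12 tested T and NK cell, 3 of 6 monocyte, 2 of 6 neutrophil, 1 of 4 B cell and 1 of 4 plasmacytoid dendritic cell markers rose with age and none fell. In wild-type cells 5 of 5 erythroid markers fell with age, 3 of 12 T and NK cell markers and 1 of 5 lung epithelium markers rose, and of 6 neutrophil markers 1 rose and 1 fell. Their part in the changes of the members with age was not tested.

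The antiviral median with age was 0.96 in knockout and -0.35 in wild-type cells, and the GTPase median was 0.37 and -0.42 (0.35 and -0.50 without Iigp1), against -0.02 and -0.03 over all genes. Without wild-type replicate 1 of 12 weeks the GTPase median with age in wild-type cells was -0.13, and without wild-type replicate 2 of 4 weeks the antiviral median was 0.00. The count in knockout cells fell to 3, 2 and 1 without 4-week replicate 1, 2 or 3, and to 3 and 5 without 12-week replicate 1 or 3. Of the 8 calls Ifitm3 passed without any 1 of these 6 libraries, and without 4-week replicate 3 no other call passed. The count in wild-type cells fell to 4, 5 and 3 without 4-week replicate 1, 2 or 3, and to 5 without 12-week replicate 2. Ddx58 and Rsad2 passed without any 1 of these 6 libraries, with the smaller Rsad2 fall given above.

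The difference between the genotypes in their change with age was tested as an interaction. No member passed in edgeR (0.248% of all genes did, all of them higher), 12 of 44 had an unadjusted p of 0.05 or less (8.3% of all genes), DESeq2 called 3, the fit without a filter on low counts 7 and limma voom none. The members nearest the threshold were Rsad2 at 5.28 (SE 1.09, adjusted p = 0.0565), Oas3 at 5.22 (SE 1.18, adjusted p = 0.0765) and Oasl2 at 3.06 (SE 0.72, adjusted p = 0.0917). Libraries moved up with age in knockout and down in wild-type cells without overlap in both for 2 of 44 members (0.422% of all genes), Cmpk2 and Gbp2, whose interaction had an adjusted p of 0.340 and 0.590.

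**Figure D4:**
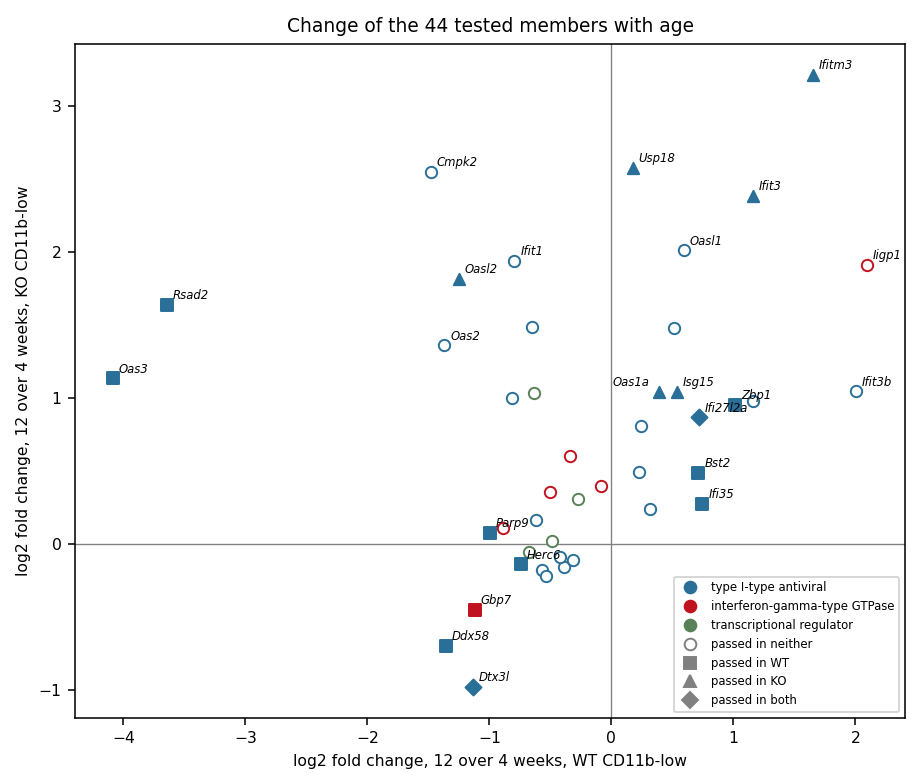
Log2 fold change from 4 to 12 weeks in wild-type CD11b-low cells (x axis) and in knockout CD11b-low cells (y axis) of the 44 tested members, each a point coloured by class; the marker shape gives the genotype in which it passed in edgeR. Oas3 and Rsad2 lie at the far left (-4.09 and -3.64 in wild-type cells), Ifitm3, Usp18 and Ifit3 at the top (3.22, 2.57 and 2.39 in knockout cells), and 2 members, Dtx3l and Ifi27l2a, passed in both genotypes.

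The remaining 22 tested members, for which no level per library is given apart from Isg20 above, were in part left out by their adjusted p. Their log2 fold changes ran over -0.51 to 1.41 (median 0.29) in CD11b-low knockout against wild-type cells at 12 weeks with none past the threshold. They ran over -0.62 to 2.61 (median 0.51) in CD11b-high knockout against wild-type cells, with 6 higher and 1 lower. Between the knockout populations they ran over -0.31 to 1.80 (median 0.20) with none past it. With age they ran over -0.98 to 2.39 in knockout cells, with 3 higher and 1 lower, and over -1.36 to 2.00 in wild-type cells, with 4 higher and 3 lower. Per kilobase of annotated exon, Ifi27l2a, Bst2 and Ifi35 were the 3 highest members in every group, at 34.2 to 95.9 CPM per kb as group means. The fourth was Samhd1 in each of the 4 CD11b-low groups and Ifitm3 in CD11b-high cells.

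**Figure D5:**
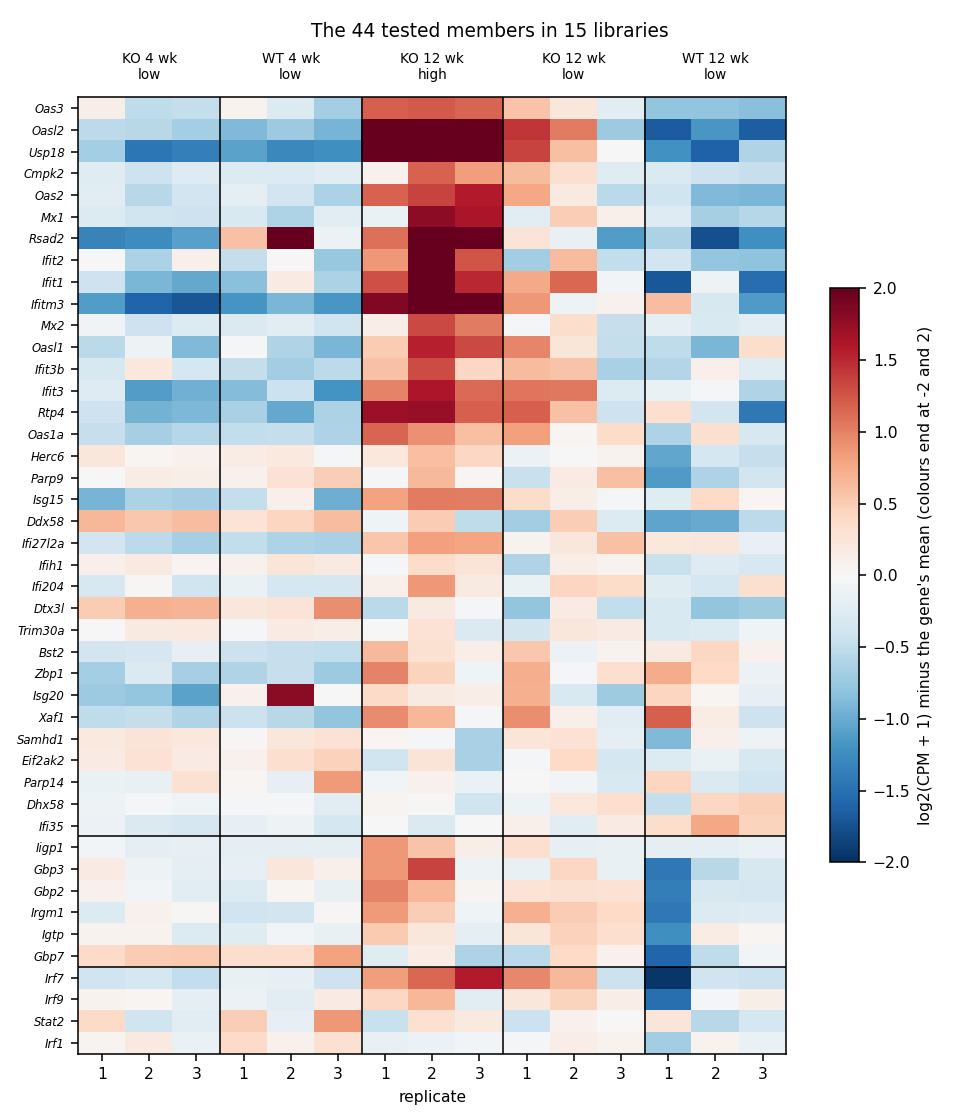
Log2(CPM + 1) minus its mean over 15 libraries (colour, red above and blue below the mean, ending at -2 and 2) for the 44 tested members (rows: antiviral genes, then GTPases, then regulators) in each library (columns, by group and replicate). The red block of the upper rows sits in the 3 CD11b-high libraries, Rsad2 and Isg20 stand out in 4-week wild-type replicate 2, and most GTPase and regulator rows are bluest in 12-week wild-type replicate 1.

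Genes of the same pathway outside the 45 gave the following counts. Of all genes, 2.6% rose and 0.497% fell in CD11b-low knockout over wild-type cells at 12 weeks. The induction list held 11 tested genes, which drive or restrain the induction of interferon. In CD11b-low knockout over wild-type cells at 12 weeks, 3 of these 11 rose: Ikbke, an IRF kinase gene, at 3.09 (SE 0.48, adjusted p = 0.0013), Tbk1, its relative, at 1.07 (SE 0.28, adjusted p = 0.0447), and Tlr7, the sensor of single-stranded RNA, at 0.99 (SE 0.23, adjusted p = 0.0262). Ikbke had 12.96, 18.1 and 20.9 CPM in CD11b-high knockout cells, 9.09, 11.9 and 6.85 CPM in CD11b-low knockout cells and 2.25, 0.637 and 0.365 CPM in wild-type cells, and knockout and wild-type libraries did not overlap. Of 43 further interferon-stimulated genes 5 rose: Ifi213 (adjusted p = 0.0469; 41 counts in knockout and 1 count in wild-type cells, a ratio of 33.1, 95% exact interval 5.61 to 1337), Ifi209 at 3.07 (SE 0.60, adjusted p = 0.00807), Oas1g at 2.86 (SE 0.59, adjusted p = 0.0118), Nlrc5, the activator of class I genes, at 1.62 (SE 0.41, adjusted p = 0.041), and Lgals3bp at 1.08 (SE 0.28, adjusted p = 0.0479). None of 5 receptor genes, 12 signalling genes or 13 further interferon-gamma targets passed, of which 2, 1 and 5 had an unadjusted p of 0.05 or less in edgeR (20.5% of all genes).

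In CD11b-high knockout over wild-type cells the further interferon-stimulated genes gave 17 higher and 1 lower of 43, and further interferon-gamma targets 4 higher and 2 lower of 13. Of all genes, 9.23% were higher and 5.6% lower. Of the 17, Slfn5 and Ifi213 were near 0 in wild-type cells, so that their size is given as a ratio of summed counts. Slfn5 had 222 counts in CD11b-high knockout and 2 in wild-type cells, a ratio of 111.04 (95% exact interval 30.4 to 923), and Ifi213 had 34 and 1, a ratio of 34.01 (5.71 to 1382). The other 15 had log2 fold changes of 5.72 (Ifitm1), 4.72 (Ifi209), 4.27 (Oas1g), 4.01 (Ms4a4c), 3.63 (Phf11a), 2.70 (Ifi205), 2.58 (Slfn1), 2.35 (Phf11b), 2.21 (Slfn8), 2.09 (Nlrc5), 1.93 (Ifit1bl1), 1.65 (Ifi211), 1.56 (Phf11d), 1.11 (Lgals3bp) and 0.94 (Ifi203), and Ifi30 fell at -0.99. Some of these also rest on few wild-type counts, with 5, 3 and 2 for Ifitm1, 3, 11 and 10 for Ifi209 and 7, 9 and 0 for Phf11a in replicates 1, 2 and 3. The gamma targets that rose were Tgtp2 at 3.86 (SE 0.999, adjusted p = 0.0157) and Gbp4 at 3.32 (SE 0.99, adjusted p = 0.033), with 0, 5 and 1 and 0, 8 and 1 counts in wild-type cells, Cd274, the gene of the checkpoint ligand PD-L1, at 1.18 (SE 0.32, adjusted p = 0.0186), and Irgm2 at 1.05 (SE 0.33, adjusted p = 0.0422). The gamma targets that fell were Gbp8 at -1.09 (SE 0.34, adjusted p = 0.0422) and the immunoproteasome gene Psmb9 at -0.79 (SE 0.21, adjusted p = 0.0187). Of the 11 genes of the induction list 4 rose, Ikbke, Tlr7, Tbk1 and Tlr3 (log2 fold changes 3.99, 1.34, 1.25 and 1.24), and of 12 signalling genes 2, Jak2 at 1.14 and the feedback inhibitor Socs3 at 1.69. In this comparison 9.23% of all genes rose. Between CD11b-high and CD11b-low knockout cells the one pathway gene that passed was Ifitm1, at 3.59 (SE 0.58, adjusted p = 0.00958). It had 8.27, 6.33 and 6.41 CPM in CD11b-high knockout cells, 0.885, 0.328 and 0.522 CPM in CD11b-low knockout cells and 0.201, 0.0955 and 0.0913 CPM in wild-type cells, so that CD11b-high libraries lay far above all others. Of 3 tested ligand genes of the wider list, Il12b rose at 3.11 and Il18 fell at -1.24 in CD11b-high knockout over wild-type cells.

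From 4 to 12 weeks, 4.81% of all genes rose and 2.08% fell in knockout cells, and 8.79% rose and 8.39% fell in wild-type cells. With age, 8 of 43 further interferon-stimulated genes rose in knockout cells, among them Ifi213, which had 14, 15 and 12 counts at 12 weeks and 0 in the 3 libraries of 4 weeks and so was at least 16.2-fold higher, taken against a floor of 3 counts over the group. The other 7 had log2 fold changes of 3.90 (Ifitm1, with 29, 11 and 16 counts at 12 weeks and 0, 3 and 1 at 4 weeks), 2.27 (Oas1g), 2.26 (Phf11b), 2.16 (Ifitm2), 2.05 (Ifi209), 1.71 (Slfn1) and 1.27 (Phf11d). Il10rb and Il12b also rose with age in knockout cells, at 0.78 and 4.87, of which Il12b had 18, 68 and 49 counts at 12 weeks and 2, 3 and 0 at 4 weeks. In wild-type cells 2 of the 43 rose and 3 fell, with log2 fold changes of 1.81 (Ifitm2), 0.95 (Ifi30), -1.13 (Uba7), -1.46 (Pml) and -1.62 (Slfn9). Of the 11 genes of the induction list 4 fell with age in wild-type cells: Ikbke at -1.63, Tlr3 at -1.09, Tlr7 at -0.93 and Adar, which restrains induction, at -0.92. None of the 11 passed in knockout cells in edgeR (1 at an unadjusted p of 0.05 or less, against 25% of all genes). Of the 13 further interferon-gamma targets, Irgm2 fell at -0.98 and Ciita and Psmb9 rose at 2.05 and 1.03 in wild-type cells, in which Il18 also rose, at 1.08.

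Markers of other cell types moved with the same groups, and their part in the differences was not tested. Of all genes, 2.6% rose and 0.497% fell in CD11b-low knockout over wild-type cells at 12 weeks. In CD11b-high knockout over wild-type cells 9.23% rose and 5.6% fell. Of 12 tested T and NK cell markers 5 rose in CD11b-low knockout over wild-type cells at 12 weeks, and 6 rose and 1 fell in CD11b-high knockout over wild-type cells. Without Cd2, which alone stood at 761 CPM or more in every library, the other 12 listed T and NK markers summed to 31.8 to 90.8 CPM in CD11b-high knockout, 46.9 to 115 CPM in CD11b-low knockout and 3.06 to 7.13 CPM in wild-type cells, of which up to 2, 1 and 4 markers were at 0 in a library. Their sums at 4 weeks were 1.33 to 3.00 CPM in knockout cells, against 2.12 to 3.81 CPM in wild-type cells. Between CD11b-high and CD11b-low knockout cells none of the 12 tested passed in edgeR (1 at an unadjusted p of 0.05, against 10% of all genes). Among CD11b-low pools replicate 2 held the most Cd3e (32.3 CPM) and was the highest of its group for 11 of 34 antiviral genes and 4 of 6 GTPases, and replicate 1 was for 18 of 34 and 2 of 6. Among CD11b-high pools replicate 2 held the most Cd3e (19.9 CPM, against 6.11 and 6.35 CPM). It was the highest of its group for 24 of 34 antiviral genes and 2 of 6 GTPases, and replicate 1 was for 7 of 34 and 4 of 6. Replicate 2 also had the highest sum of the 6 monocyte markers (73.9 CPM, against 13.8 CPM in replicate 1 and 29.3 CPM in replicate 3).

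The 7 neutrophil markers summed to 411 to 498 CPM in CD11b-high knockout, 181 to 256 CPM in CD11b-low knockout and 92.9 to 124 CPM in wild-type cells at 12 weeks. Ly6g, which defines neutrophils, was at 0 in all 15 libraries. The 6 monocyte markers summed to 13.8 to 73.9, 8.02 to 22.4 and 7.23 to 9.95 CPM in the same order of groups, with Ly6c2 at 1.63 to 4.50, 0.750 to 1.49 and 0.0913 to 0.255 CPM. Of the monocyte markers 4 of 6 rose in CD11b-high knockout and 2 of 6 in CD11b-low knockout over wild-type cells, and of the neutrophil markers 4 and 1 of 6 tested. Between the knockout populations S100a9 alone passed among the markers of both lists, at 4.24 (SE 0.70, adjusted p = 0.0131). The 6 plasmacytoid dendritic cell markers summed to 12.95 to 21.9, 17.1 to 21.9 and 11.8 to 18.7 CPM, most of it from Tcf4, and Siglech, the defining one, had 0.0620 to 1.08, 0.122 to 1.22 and 0 to 0.0403 CPM. Of the 4 tested, 1 rose in CD11b-high knockout over wild-type cells and none fell. None passed in edgeR in CD11b-low knockout over wild-type cells or between the knockout populations (1 and 0 at an unadjusted p of 0.05). The 5 erythroid markers summed to 53.0 to 181, 68.6 to 146 and 571 to 1308 CPM, and 4 of 5 fell in each knockout population against wild-type cells. The 5 markers of lung epithelium summed to 32.5 to 37.7, 15.4 to 30.8 and 65.0 to 114.6 CPM, of which 2 fell in CD11b-high and 1 in CD11b-low knockout cells. No B cell marker passed in edgeR in the 3 comparisons (0 of 4, and 0 at an unadjusted p of 0.05).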

How the data were processed

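RNA sequencing counts of 15 libraries of sorted mouse alveolar macrophages, 5 groups of 3 by the labels, were used. The authors deposited raw gene counts for each library. The submitters' processing notes name STAR and featureCounts (Subread). Their versions, the strand setting and the genome build are not given in the sources used here, which leaves reads of genes on opposite strands unresolved. Of 40780 rows 270 repeated a gene with the same counts and were removed. Positions are from GENCODE M21 on GRCm38, matched by Ensembl identifier.

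The test was that of edgeR 4.0.16 (R 4.3.3): filterByExpr (minimum count 10, minimum total 15), which kept 13284 genes and at least 99.9% of each library's counts, TMM factors, and 1 robust quasi-likelihood fit over all 15 libraries with 10 residual degrees of freedom and no replicate block. Tests were two-sided and adjusted over all 13284 genes. Alternatives were DESeq2 1.42.0, limma 3.58.1 (voom with library weights), RLE factors, no filter, the compared groups alone, a replicate block, and each library left out. The scripts were tested on simulated data. No column of the table was left unused, and the labels give no batches.

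Same-numbered CD11b-high and CD11b-low knockout libraries at 12 weeks deviated together for replicates 1 and 2 (correlations of 0.56 and 0.47). For replicate 3 the correlation was 0.15, against 0.11 and 0.10 between replicates 2 and 3 of these groups. Same-numbered CD11b-low knockout and wild-type libraries at 12 weeks gave 0.47, 0.05 and 0.33, though the genotypes come from different mice. The correlations therefore cannot show that the replicate number, from the titles, pairs the 2 knockout groups. The replicates are called independent in the series' design text.

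The 45 genes, the lists and the tests were chosen with earlier results of these data known. A level was given in every library for the 12 called members with the smallest adjusted p in any comparison, all GTPases and regulators, and Isg15, Mx1, Ifit1, Rsad2 and Oasl2. The others have ranges and counts, and Isg20 was added after its values were seen. Pathway genes past the threshold are named. A withheld item is not reported here.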

Additional observations from a re-analysis of the deposited data

How the results depend on the processing

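None of the 49 member calls changed direction in any alternative run. Counts of members called that moved by more than 1.5 times were as follows. With only the compared groups in the fit, 0 (CD11b-high against CD11b-low knockout), 15 (CD11b-high knockout against wild-type) and 3 (age in wild-type cells) passed, against 2, 24 and 11. DESeq2 called 9 in CD11b-low knockout against wild-type cells at 12 weeks, 2 at 4 weeks, 4 between the knockout populations and 3 in the interaction, and limma voom 1, 2, 4 and 0. Without a filter the counts were 13, 2, 5 and 7, and 16 with age in knockout cells, against 4, 0, 2, 0 and 8. With a replicate block over 15 libraries the interaction had 2. With each library left out in turn, counts ran over 3 to 6 in CD11b-low knockout against wild-type cells at 12 weeks, 0 to 1 at 4 weeks, 0 to 2 between the knockout populations, 15 to 21 in CD11b-high knockout against wild-type cells, 1 to 7 with age in knockout, 3 to 13 in wild-type cells and 0 to 2 in the interaction. The causes were not tested.

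Calls that passed under all alternatives were Cmpk2, Ifit1, Ifit2, Ifitm3, Irf7, Mx1, Oas2, Oas3, Oasl2, Rsad2, Rtp4 and Usp18 in CD11b-high knockout against wild-type cells, Oasl2 in CD11b-low knockout against wild-type cells, Ifitm3 with age in knockout and Ddx58 and Rsad2 in wild-type cells. With the replicate block within the 12-week knockout pools 2 members passed; Ifitm3 was kept (adjusted p = 0.0397) and Usp18 was not (adjusted p = 0.0514). Depth limits Oas3 and Iigp1, with 2 counts and 1 count in 12-week wild-type cells, and the interferon genes themselves.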
